A study of Mus musculus with 13 samples.

Results

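Several hormones that mobilize liver glucose act through receptors of the G protein-coupled family. Taken up here were 9 genes of G protein-coupled signaling, not all of them for glucose-mobilizing receptors. They include the adenosine receptors Adora1 and Adora2b, the adrenergic receptors Adra1a, Adra1b and Adrb3, and the glucagon receptor Gcgr. The others are the vasopressin receptor Avpr1a, the prostaglandin E2 receptor Ptger3, and Gnas, which encodes the stimulatory G protein alpha subunit. The genes were chosen by name with earlier results of the liver comparison known, and a member was kept if its symbol was among the 11779 genes listed for mouse liver. Of the 9 genes, 7 were listed, and Adora2b and Ptger3 were not among the listed genes and are not analysed here. Each symbol matched a single row.

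The livers came from Balb/c mice. In the LL35 ASO group, 3 mice received a mix of GalNAc-conjugated antisense oligonucleotides (ASOs) against the long non-coding RNA LL35 (Falcor). In the Luc ASO group, 3 mice received a GalNAc-conjugated ASO against Firefly luciferase, so every mouse carried a GalNAc-ASO and no untreated liver was compared. GalNAc is a sugar that directs its cargo to hepatocytes through the asialoglycoprotein receptor. Livers were taken 5 days after injection. The labels give the mix as 5 ASOs, whereas the list of ASOs for the mouse study names 4 against LL35. The labels give 150 mg/kg as the dose of each ASO, whereas the methods describe it as the total of the mix. The series also holds 7 libraries of AML12 cells, a mouse hepatocyte line, which were not analysed here.

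The values analysed are 1 number per gene, the mean normalized count over the compared liver libraries, as the authors' mean. It has no value for single mice or for either group, so no spread, test or difference between LL35 ASO and Luc ASO livers is given below, and differences in level between genes cannot be set against the variation between mice. The depth of each library is unknown. The lowest mean normalized count in the list was 15.6 and the median was 235, and why a gene is absent from the list is not given in the sources used here. Because long genes collect more reads, levels of different genes are compared below as the mean normalized count per kb of exon, and undivided counts are set side by side only to show how the order depends on length. The level per kb had a median of 51.5 over the 11754 genes with an annotated exon length. In whole liver, a low level can come from few cells that carry a transcript or from little transcript per cell, and these cannot be told apart.

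Of the marker lists examined, that of hepatocytes had the highest levels. All 6 hepatocyte markers examined were listed, from 5497 per kb for Serpina1a to 519843 per kb for albumin (Alb). Markers of other liver cells were also present. The 5 Kupffer cell markers ranged from 55.4 to 791 per kb, the 5 sinusoidal endothelial markers from 41.4 to 289 per kb and the 5 stellate cell markers from 18.2 to 265 per kb. Of the 5 cholangiocyte markers, Spp1 (91.9 per kb) and Sox9 (9.94 per kb) were listed, and Krt19, Krt7 and Epcam were not. Which cells carried each receptor transcript was not tested.

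These receptors use different G proteins. Glucagon and beta-adrenergic receptors act mainly through Gs, which activates adenylyl cyclase and raises cAMP. Cyclic AMP then activates protein kinase A, which promotes glycogen breakdown and gluconeogenesis. Alpha1-adrenergic and V1a vasopressin receptors act mainly through Gq, which activates phospholipase C and releases calcium, another route to glycogen phosphorylase. The A1 adenosine and alpha2-adrenergic receptors act mainly through Gi, which lowers cAMP.

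Gcgr stood highest of the 7 genes per kb of exon and Adrb3 lowest, with a 68.2-fold difference in level between them. In descending order of the level per kb came Gcgr, Gnas, Adra1b, Avpr1a, Adora1, Adra1a and Adrb3. The first 4 lay above the median of the listed genes and the last 2 below it, under every alternative tried, except that Adrb3 has no value under a minimum count of 50. Adora1 lay just above the median at the 54.1 percentile, but below it with the longest transcript as length (49.4) or when genes under 50 mean normalized counts were dropped (45.9). Neighbours in this order differed by 2.64-fold (Gcgr over Gnas), 1.38-fold (Gnas over Adra1b), 1.71-fold (Adra1b over Avpr1a), 1.99-fold (Avpr1a over Adora1), 4.33-fold (Adora1 over Adra1a) and 1.27-fold (Adra1a over Adrb3). Whether any of these steps exceeds the spread between mice could not be determined.

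**Figure D1:**
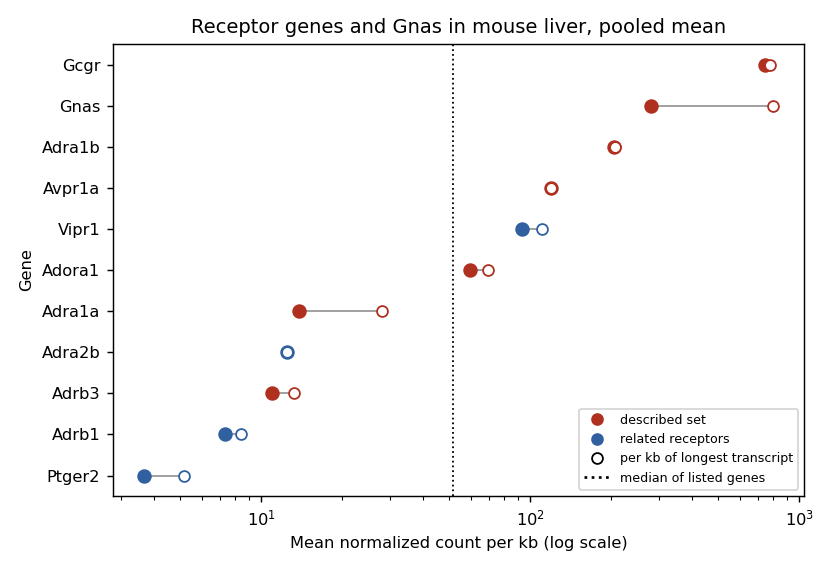
Mean normalized count per kb (log axis) of the 7 described genes and of 4 related receptors in the pooled liver data. Filled points use the union of annotated exons as length, open points the longest transcript, and the dotted line is the median of the listed genes. Gcgr lies at 745 per kb, and Gnas moves from 282 to 799 per kb with the choice of length.

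Gcgr, the receptor through which glucagon raises hepatic glucose output, reached 745 per kb from a mean normalized count of 1952. This placed it at the 95.3 percentile, or rank 552 from the top of the 11754 genes. Among the 7 receptors of the glucagon and secretin family examined, only Gcgr and Vipr1 were listed. Vipr1, a receptor for vasoactive intestinal peptide, had a level of 93.4 per kb, so that Gcgr exceeded it 7.97-fold. Glp1r, Glp2r, Gipr, Sctr and Vipr2 were not among the listed genes. Gcgr made up 64.6% of the summed level per kb of the 6 receptors in the described set.

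The alpha1-adrenergic receptors, which bind norepinephrine and epinephrine and act through Gq, were represented by Adra1b and Adra1a. Adra1b reached 204 per kb from a mean normalized count of 691, at the 83.8 percentile. Adra1a reached 13.8 per kb from a mean normalized count of 121, at the 16.8 percentile. Adra1b therefore exceeded Adra1a 14.8-fold per kb. The exons of Adra1a cover 8728 bases in all annotated transcripts together but 4282 bases in its longest transcript, and with the latter its level was 28.2 per kb, still well below that of Adra1b (207 per kb). Adra1d was not among the listed genes.

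RefSeq (GRCm38.p6) annotates 2 starts for Adra1b and 1 for Avpr1a, and the 100 bases before each of these starts are shown, because both genes are high-ranking Gq-coupled receptors and the Adra1b starts differ in sequence. Capitals mark CG dinucleotides, the sites of DNA methylation.

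Adra1b, upstream start, chr11:43901238-43901337, minus strand: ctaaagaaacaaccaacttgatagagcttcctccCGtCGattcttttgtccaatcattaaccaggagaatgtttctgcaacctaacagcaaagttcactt

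Adra1b, downstream start, chr11:43836490-43836589, minus strand: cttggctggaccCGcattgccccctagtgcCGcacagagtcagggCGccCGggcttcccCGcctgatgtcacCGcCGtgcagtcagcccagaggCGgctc

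Avpr1a, single start, chr10:122448399-122448498, plus strand: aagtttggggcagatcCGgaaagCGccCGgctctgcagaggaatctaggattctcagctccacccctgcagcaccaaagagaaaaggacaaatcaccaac

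In the 250 bases before the start, the upstream Adra1b window held 3 CG dinucleotides and 41.6% G or C, and the downstream window held 22 CG dinucleotides and 72.8% G or C. The Avpr1a window held 12. Over all 32851 such windows in the RefSeq table the median was 6, and 14.8% of them held at least as many as the downstream Adra1b window. The share at or above the count of the upstream Adra1b window was 71.0%. For the other listed members found in this table, the single Gcgr window held 24 CG dinucleotides, the 2 Adora1 windows 18 and 19, and the 4 Gnas windows 14 to 29. Which of these starts were used in the livers was not measured, since a gene-level value cannot be divided between starts.

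Adrb3, a beta-adrenergic receptor that acts through Gs and is best known from adipose tissue, reached 10.9 per kb from a mean normalized count of 36.9, at the 13.1 percentile. Adrb1, the beta1-adrenergic receptor known for its role in the heart, had 7.31 per kb from a mean normalized count of 24.7, so that Adrb3 exceeded it 1.49-fold. Both counts are near the low end of the list, whose lowest is 15.6. Among the alpha2-adrenergic receptors, only Adra2b was listed, with 12.5 per kb, a level close to those of Adra1a and Adrb3. With the longest transcript as length, Adra2b stayed at 12.5 per kb, close to Adrb3 (13.2 per kb) but below Adra1a (28.2 per kb). Adra2a and Adra2c were not among the listed genes.

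Avpr1a, the V1a receptor through which vasopressin acts on hepatocytes, reached 119 per kb from a mean normalized count of 318, at the 73.2 percentile. It has a single annotated transcript, so its level per kb was the same with either length. Its percentile fell to 65.3 with the longest transcript as length for all genes, and to 58.2 with no length. The related genes Avpr1b, Avpr2 and Oxtr were not among the listed genes. Avpr1a lay 6.25-fold below Gcgr and 1.71-fold below Adra1b per kb.

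Adora1, the Gi-coupled A1 adenosine receptor, reached 59.9 per kb from a mean normalized count of 346, at the 54.1 percentile. Its level was 12.4-fold below that of Gcgr. It was the only one of the 4 adenosine receptor genes in the list. Before division by exon length, the Adora1 mean normalized count was above that of Avpr1a, and per kb it was below. Exons of Mybph, annotated on the opposite strand, cover 20.1% of the Adora1 exon bases. Likewise, exons of the antisense transcript Gm45470 cover 24.9% of those of Adrb3. The libraries were made with a directional kit, but the strand used in counting is not given in the sources used here. How reads from the shared exon bases entered the counts of Adora1 and Adrb3 is therefore not known. Neither Mybph nor Gm45470 was among the listed genes. For Gcgr, Adra1b, Avpr1a and Adra1a no exon overlap with another annotated gene was found.

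Of the 4 prostaglandin E2 receptor genes, Ptger2 alone was listed, at 3.67 per kb (mean normalized count 19.0) and the 2.16 percentile, the lowest level among the receptors shown.

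**Figure D2:**
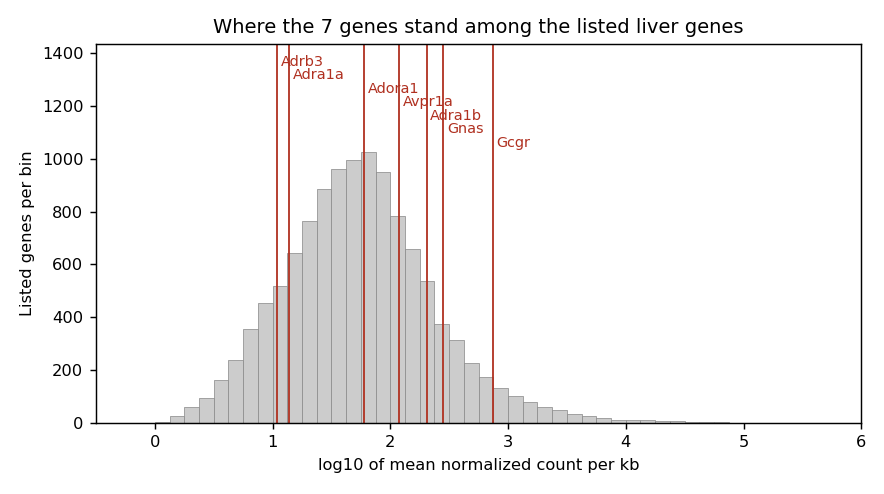
Number of listed liver genes (vertical axis) by log10 of the mean normalized count per kb (horizontal axis), with red lines at the 7 described genes. Gcgr lies in the upper tail at the 95.3 percentile, Adora1 near the middle at the 54.1 percentile, and Adra1a and Adrb3 in the lower part at the 16.8 and 13.1 percentiles.

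Gnas had a level of 282 per kb, at the 88.1 percentile, and its mean normalized count was 3154. Per kb of exon, Gnas lay below Gcgr, 1.38-fold above Adra1b and 25.8-fold above Adrb3. Its place relative to Gcgr depended on the length used. The Gnas locus is imprinted and gives several products, and its 24 annotated transcripts cover 11186 exon bases together, whereas the longest of them has 3947. With the longest transcript as length, Gnas had 799 per kb and stood 1.02-fold above Gcgr. Exons of Nespas and Gm20721 on the opposite strand cover 8.83% and 13.1% of the Gnas exon bases. The value cannot be assigned to the Gs alpha transcript alone.

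Receptors and alpha subunits were then summed by the G protein class they are mainly known for, a grouping written after the levels were seen. Of those summed, 5 of 14 Gs-coupled, 3 of 7 Gq-coupled and 2 of 6 Gi-coupled receptor genes were listed. The Gs-coupled receptors summed to 859.9 per kb, which was 67.7% of the total of the receptors summed, and most of this was Gcgr. Other liver receptors were not summed, so these shares describe the chosen receptors only. The Gq-coupled receptors, led by Adra1b and Avpr1a, summed to 337 per kb (26.6%), and the Gi-coupled receptors Adora1 and Adra2b to 72.4 per kb (5.70%). The alpha subunits were distributed differently. The Gi subunits, which receive signals from many other receptors too, summed to 608 per kb, G12 to 577 per kb, Gs to 282 per kb and Gq to 251 per kb. With the longest transcript as length, Gs came to 799 per kb and became the largest class. The Gs value is that of the whole Gnas locus and cannot be assigned to the Gs alpha transcript alone.

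**Figure D3:**
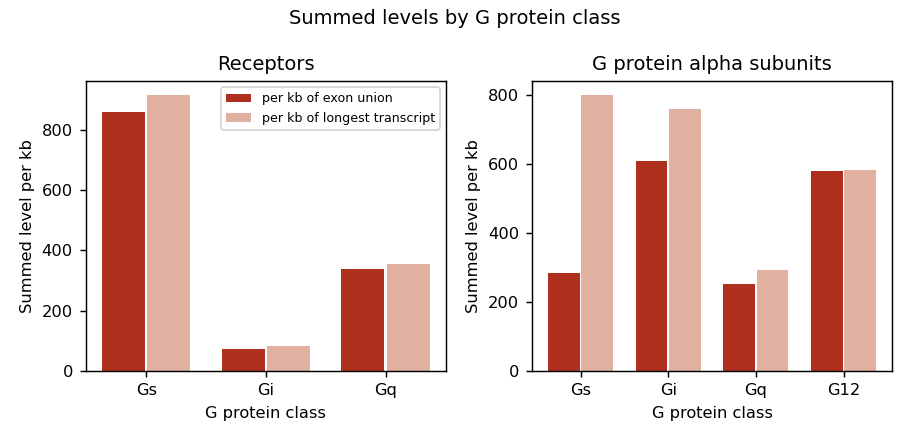
Summed mean normalized count per kb of listed receptor genes (left) and G protein alpha subunit genes (right) by G protein class, with 2 choices of length. Among the receptors summed, those coupled to Gs reach 859.9 per kb against 337 for Gq and 72.4 for Gi. The Gs class of alpha subunits is the whole Gnas locus and changes from 282 to 799 per kb with the length used.

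Among the alpha subunits themselves, 8 of 12 genes besides Gnas were listed, with a median percentile of 76.0. Gna12 (467 per kb), Gnai3 (387 per kb) and Gnai2 (212 per kb) were highest. Gnai1 had only 8.32 per kb. Gna11, a Gq class subunit, had 167 per kb, 2.15-fold above Gnaq. For the beta and gamma subunits, 7 of 15 were listed with a median percentile of 44.3, led by Gnb1 (223 per kb), Gnb2 (193 per kb) and Gng12 (116 per kb). The median was 67.8 when genes under 50 mean normalized counts were dropped, list members among them.

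The enzymes that make and remove cAMP had mostly low levels with a few higher members. Of 10 adenylyl cyclases, 6 were listed with a median percentile of 19.3, where the median over all listed genes is by definition the middle of the scale. It was 33.4 when genes under 50 mean normalized counts were dropped, which also removed the cyclases Adcy3 and Adcy5 from the list. Adcy9 (134 per kb) and Adcy6 (85.0 per kb) held most of their summed level, 51.6% and 32.6%, and Adcy4 followed at 15.9 per kb. Of 16 cAMP phosphodiesterases, 13 were listed with a median percentile of 14.0, or 4.89 with the same minimum, again without the list members under it. Pde3b, the phosphodiesterase through which insulin lowers cAMP, was the highest at 163 per kb, followed by Pde8a (113 per kb) and Pde4c (90.7 per kb). The other 10 lay between 1.81 and 18.8 per kb.

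The effectors of cAMP were higher, with 12 of 14 listed and a median percentile of 67.6. Rapgef4, which encodes the cAMP-activated exchange factor Epac2, had the highest level (697 per kb, mean normalized count 4652), close to that of Gcgr, whereas its relative Rapgef3 had 19.4 per kb. The protein kinase A subunits Prkar1a (415 per kb) and Prkaca (248 per kb) came next. The transcription factor Creb1, a target of protein kinase A, had 37.5 per kb and its coactivator Crtc2, which takes part in the glucagon response, 98.5 per kb. In the phospholipase C and calcium arm, 19 of 20 genes were listed with a median percentile of 46.1. Among its highest members were Calm2 (376 per kb), which encodes calmodulin, and Pygl (331 per kb), the liver glycogen phosphorylase on which both arms converge. Of the 3 inositol trisphosphate receptors, Itpr1 (155 per kb) and Itpr2 (130 per kb) were above Itpr3 (11.8 per kb), and of the 4 phospholipase C beta genes the highest was Plcb1 (45.4 per kb).

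Kinases and arrestins that switch receptors off were present at moderate levels. All 7 genes of this list were listed (2 of its 9 symbols, Adrbk1 and Adrbk2, are older names of Grk2 and Grk3), with a median percentile of 37.7. Grk2 had 90.3 per kb, Arrb2 81.7 per kb and Grk6 58.1 per kb. In the list of 4 receptor accessory genes, the accessory protein genes Ramp2 (27.3 per kb) and Ramp1 (11.9 per kb) were listed and Ramp3 was not. Calcrl (68.9 per kb), also in this list, encodes a receptor rather than an accessory protein.

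Some genes of ligand removal or transport reached levels near that of Gcgr. Whether any gene named below sets the supply of a ligand at its receptor was not tested. Of 12 genes of adenosine supply and removal, 9 were listed with a median percentile of 65.6. Adk, the kinase that converts adenosine to AMP, had 847 per kb and the nucleoside transporter Slc29a1 had 750 per kb. Entpd5 had 565 per kb, and whether it contributes to adenosine supply was not tested. Nt5e (CD73), which forms extracellular adenosine, had 87.4 per kb, and adenosine deaminase (Ada) had 19.8 per kb. Of the monoamine oxidases, whose substrates include catecholamines, Maob had 718 per kb and Maoa 21.2 per kb (25.6 percentile), 34.0-fold below Maob. Which of them degrades norepinephrine or epinephrine in these livers was not tested. In the prostaglandin E2 list, 5 of 7 genes were listed. Hpgd, which inactivates prostaglandins, had 722 per kb, Ptges3 had 366 per kb and the transporter Slco2a1 had 89.3 per kb. Ptgs1 had 62.4 per kb, and Ptgs2 and Ptges were not among the listed genes.

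**Figure D4:**
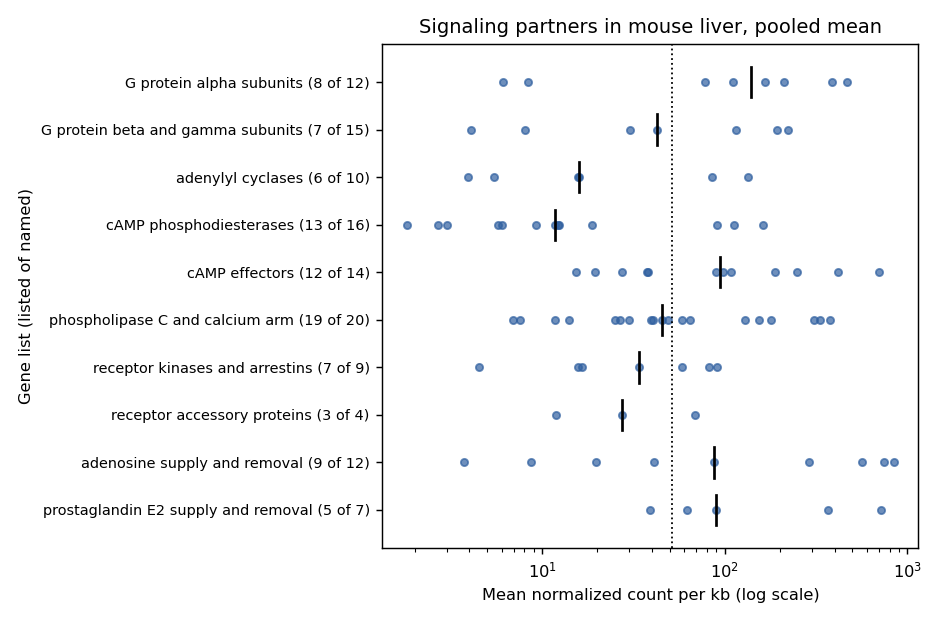
Mean normalized count per kb (log axis) of every listed gene in 10 lists of G proteins, enzymes, accessory proteins and ligand-handling genes. The accessory protein list also holds the receptor gene Calcrl. Each point is a gene, black bars are list medians and the dotted line is the median of all listed genes. The lists of adenylyl cyclases and cAMP phosphodiesterases have medians at the 19.3 and 14.0 percentiles, and the cAMP effectors at the 67.6 percentile.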

How the data were processed

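Liver RNA was fragmented, depleted of rRNA and sequenced from directional libraries. According to the methods, the authors aligned reads with STAR 2.5.3a, counted them on Ensembl genes, normalized the counts by the RLE method of DESeq2 and compared the groups by the Wald test. The genome build and annotation release are not given in the sources used here. The deposited liver table holds a signal, the authors' mean normalized count per gene over the compared libraries, and 5 columns of the authors' own comparison (fold change, its error, statistic, p-value and adjusted p-value). These 5 columns were not used, so no effect of LL35 knockdown is given. The mean has no value per mouse, so no test between groups and no interval for a level could be computed from it. Depth per sample is also unknown.

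Means were divided by the length of the exon union in GENCODE release M21, matched by Ensembl identifier for 11754 of 11779 genes, and expressed per kb. A percentile is the share of these genes at or below a level. The members and lists were chosen with earlier results of these data known. All members are named, with the 3 highest genes of each list and the listed related receptors except a few genes not reported here, and further list genes were named after their values were seen. Promoter windows were found in the RefSeq table for 5 of the 7 genes. Alternatives changed the length, the genes ranked, the filter and the matching. Percentiles were checked on simulated ranks. Scripts used Python 3.11.15, numpy 2.4.6, pandas 2.3.3, scipy 1.17.1 and matplotlib 3.10.9.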

Additional observations from a re-analysis of the deposited data

How the results depend on the processing

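With the longest transcript as length, the percentiles of Gcgr, Gnas, Adra1b, Avpr1a, Adora1, Adra1a and Adrb3 were 94.1, 94.3, 78.8, 65.3, 49.4, 25.6 and 11.9, and with no length they were 92.9, 96.1, 77.2, 58.2, 60.5, 33.3 and 11.1. When genes under 50 mean normalized counts were dropped, they were 94.4, 86.0, 80.9, 68.4, 45.9 and 6.10, and Adrb3 was below this minimum. Ranking among protein-coding genes moved none of the 7 beyond its 95% binomial interval (Wilson), which covers counting of genes only. The levels per kb of the longest transcript were 780.0 for Gcgr, 799 for Gnas, 207 for Adra1b, 69.7 for Adora1, 28.2 for Adra1a and 13.2 for Adrb3. Gnas was 0.379-fold of Gcgr per kb of exon union, but 1.02-fold with the longest transcript and 1.62-fold with no length. Against Adra1b, Avpr1a, Adora1, Adra1a and Adrb3, the Gnas level was 3.85, 6.71, 11.5, 28.3 and 60.6-fold with the longest transcript and 4.57, 9.91, 9.11, 26.1 and 85.6-fold with no length, above 1 as before. Matching by Ensembl identifier changed the number of listed genes in 0 of 12 lists. List medians moved by -5.23 to 13.8 percentile points with the longest transcript and by -9.15 to 24.0 with the minimum of 50. That minimum also removed any list member below it, so the genes behind a median could change. No replicate could be left out, since no value per mouse was used. No paired analysis was possible because the table holds a single mean per gene.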
